A study of Mus musculus with 12 samples.

Results

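The comparison set vehicle-treated glia that lack the interleukin-1 receptor IL-1R1 against vehicle-treated wild-type glia, to show how expression differs by genotype when no IL-1β is added. It used 5 of the 12 arrays of the series, chosen by their titles: IL-1R1-/- replicates 1 and 2 and wild-type replicates 1 to 3. The cells were primary mixed glial cultures from mice, kept for 10 to 12 days after isolation and given vehicle for 4 hours, and the other arrays of the series received 10 ng/ml IL-1β. RNA was hybridised as radio-labelled cDNA. Not given here are the strain, age or sex of the mice, the brain region, the part of the gene that the IL-1R1-/- allele removes and the content of the vehicle. The labels call the replicates of each genotype independent, and n below counts arrays, 2 IL-1R1-deficient and 3 wild-type.

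Mixed glial cultures hold mostly astrocytes, which support neurons and buffer ions and glutamate, together with microglia, the resident macrophages of the brain, and some cells of the oligodendrocyte lineage. IL-1R1 binds interleukin-1 and pairs with an accessory chain, and the complex signals through MyD88 and IRAK kinases to NF-κB and MAP kinases. The loss of the receptor and any other difference between the mice or cultures of the genotypes cannot be told apart.

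The third IL-1R1-deficient vehicle column was left out. Its values matched those of wild-type vehicle replicate 1 at 1 ratio, 1.12, in 5959 of 5982 probes, and which of these labels is right cannot be told from the values. IL-1R1-deficient vehicle replicate 1 also had a copy, under the label of IL-1R1-deficient IL-1β replicate 3, at 6531 of 6584 probes. The median deposited intensity of the 5 arrays ran from 4649 for wild-type replicate 2 to 58788 for IL-1R1-deficient replicate 2. After quantile normalization the 2 deficient arrays correlated at 0.903 across probes and the 3 wild-type pairs at 0.816 to 0.871. Pairs of unlike genotype correlated at 0.781 to 0.90, and the highest of these joined IL-1R1-deficient replicate 2 and wild-type replicate 3. That pair of unlike genotype was therefore about as similar as the 2 deficient arrays were to each other.

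No transcript passed the test between the genotypes. Of the 5713 probes with a value on all 5 arrays, 0 (0%) had an adjusted p under 0.05 in limma, and the smallest adjusted p was 0.0757. Without adjustment 587 probes (10.3%) had p under 0.05, 375 higher (6.56%) and 212 lower (3.71%) in IL-1R1-deficient glia, and with median centring in place of quantile normalization these were 575 and 67. The count was 222 without IL-1R1-deficient replicate 1 and 145 without both arrays that have copies. Differences below are log2 intensity in deficient glia minus log2 intensity in wild-type glia. For 874 probes (15.3%) both deficient arrays lay above all 3 wild-type arrays, for 750 (13.1%) they lay below, so the arrays separated for 1624 probes (28.4%). The median difference over all probes was -0.03. With median centring 90 probes passed, all higher, and all 15 genes described first below were among them. Of the 90, 42 lay in the brightest 10% of probes. Median centring does not level the spread of the arrays. Before normalization the SD of log2 intensity was 0.961 and 0.944 in deficient and 0.958, 0.696 and 0.805 in wild-type arrays. Whether this spread accounts for the 90 was not tested. With all 10 distinct arrays in 1 model, culture as a random block, 1 probe passed, that of the RIKEN transcript 2610318N02Rik (adjusted p = 0.0468), and 0 passed there once a trend with probe position, described below, had been removed.

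The genes with the smallest p among those whose arrays did not overlap are described first, 15 above and 15 below wild-type. They were picked for their separation in these arrays, so their values are a description, and none passed. Rdh5, a retinol dehydrogenase of the retinoid cycle, had 16.61 and 16.88 in the deficient arrays and 15.10, 14.48 and 14.70 in the wild-type arrays. The difference was 1.98 ± 0.24 (SE), or 3.95-fold (limma adjusted p = 0.0757). Zfp281, a zinc-finger transcription factor of pluripotent cells, had 16.52 and 16.89 against 15.06, 14.46 and 14.94, a difference of 1.88 ± 0.25 (SE). The deficient arrays lay well apart from wild-type for both, by more than the arrays of a genotype spread.

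2610318N02Rik, a transcript without an assigned function, had 16.82 and 17.67 in deficient and 15.16, 15.40 and 14.83 in wild-type arrays. Its difference of 2.11 ± 0.30 (SE), 4.32-fold, was the largest of the 30, and its deficient arrays lay further apart than those of the other genes described so far. Its other probe did not share this separation: the deficient arrays had 14.71 and 13.56 and the wild-type arrays 14.13, 13.93 and 13.59. Rdh5 also had another probe, at a difference of 0.09. For Zfp281 the other probe separated the arrays too, at 16.64 and 16.50 against 15.44, 15.93 and 15.46, a difference of 0.96.

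Trak2, Eral1 and Tmem70 encode proteins that act at mitochondria. Trak2, an adaptor that links mitochondria to kinesin motors, had 18.37 and 18.36 in deficient and 16.67, 16.15 and 17.01 in wild-type arrays, a difference of 1.76 ± 0.27 (SE). Its other probe had a difference of -0.07. Eral1, a GTPase that assembles the small mitochondrial ribosomal subunit, had 16.51 and 16.47 against 15.27, 15.04 and 15.20, and its other probe had a difference of 0.98 with overlapping arrays. Tmem70, an assembly factor of ATP synthase, had 15.60 and 15.74 against 14.37, 14.64 and 14.32. These 3 were named by the rule of smallest p and not as a list, and the respiratory chain subunits, given below, lay on the other side.

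Hao1, the peroxisomal glycolate oxidase, had 16.15 and 15.99 against 14.68, 14.63 and 14.78, a difference of 1.37 ± 0.20 (SE). Hpse, the heparanase that cuts heparan sulfate chains of the matrix, had 16.14 and 16.50 against 14.74, 15.04 and 14.76. Nqo1, a quinone reductase and a target of the antioxidant factor NRF2, had 16.23 and 16.17 against 15.08, 15.004 and 15.09. The Nqo1 arrays of each genotype lay within 0.1 of each other, with a difference of 1.14 ± 0.19 (SE).

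Car1, a carbonic anhydrase, had a difference of 1.65 ± 0.27 (SE), Dph3, which takes part in diphthamide synthesis, 1.39, and Exoc3, a subunit of the exocyst, 1.42. Dedd2, a death effector domain protein, had 1.32, Ociad2 1.26 and Ube2j1, a ubiquitin-conjugating enzyme of the endoplasmic reticulum, 1.14. Other probes gave -0.40 for Dph3, 0.03 for Dedd2 and -0.15 for Ube2j1. Of the 8 named genes above wild-type that had another tested probe, Zfp281 alone kept non-overlapping arrays in the same direction there. The adjusted p of the 15 genes lay between 0.0757 and 0.0837.

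**Figure D1:**
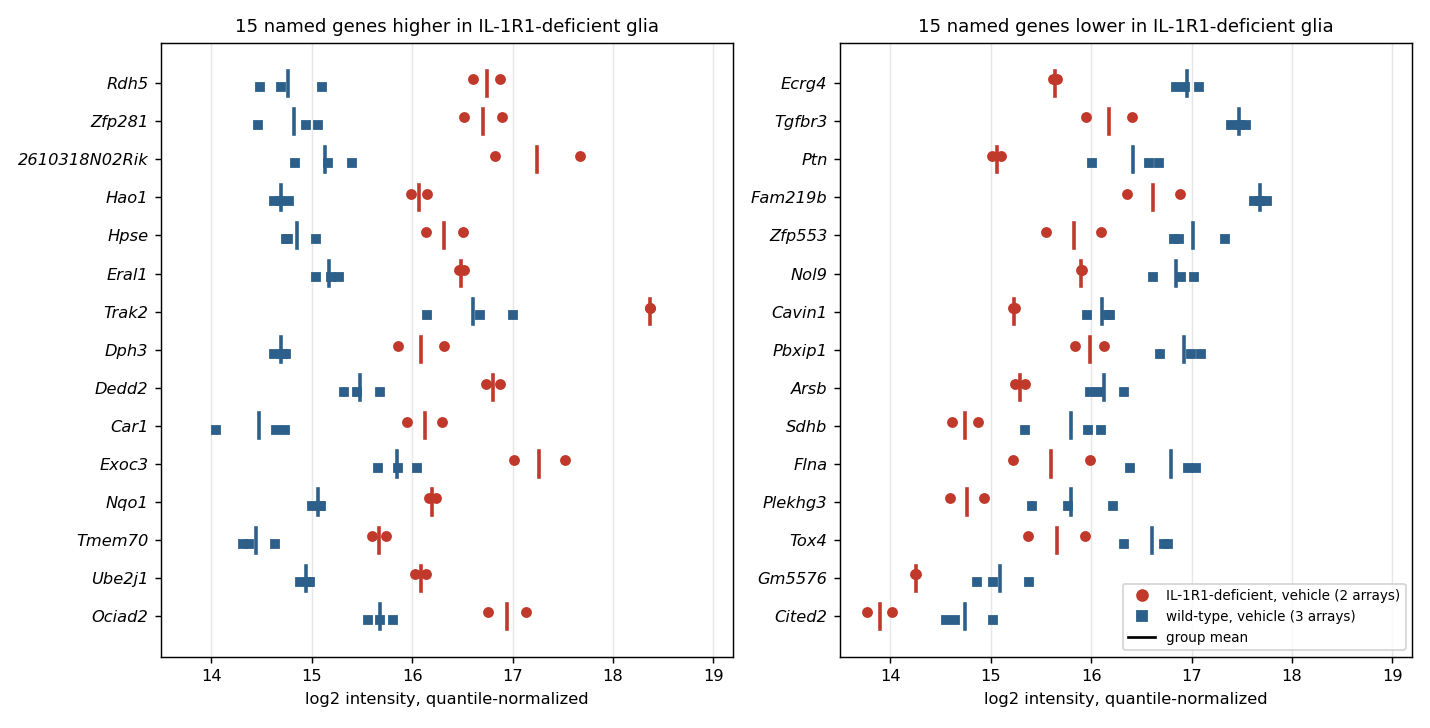
Quantile-normalized log2 intensity (x axis) of the 15 genes above and the 15 below wild-type with the smallest p among genes whose arrays did not overlap (y axis). Circles are the 2 IL-1R1-deficient and squares the 3 wild-type vehicle arrays, and upright bars are group means; Rdh5 reads 16.61 and 16.88 against 14.48 to 15.10, and Ecrg4 15.62 and 15.66 against 16.85 to 17.07.

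Ecrg4, Tgfbr3 and Ptn had the smallest p below wild-type. Ecrg4, which encodes a secreted peptide precursor best known from choroid plexus, had 15.62 and 15.66 in deficient arrays and 16.85, 17.07 and 16.93 in wild-type arrays, a difference of -1.31 ± 0.20 (SE, limma adjusted p = 0.0757). Tgfbr3, the co-receptor betaglycan that presents TGF-β, had 15.95 and 16.41 against 17.55, 17.49 and 17.39, a difference of -1.30 ± 0.22 (SE). Ptn, the heparin-binding growth factor pleiotrophin made by astrocytes, had 15.10 and 15.02 against 16.57, 16.67 and 16.005, a difference of -1.36 ± 0.25 (SE). For all 3 the gap between the genotypes was wider than the spread within either. Another probe of Tgfbr3 had overlapping arrays and a difference of -0.40.

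Flna, the actin crosslinker filamin A, was measured by 3 probes, and on each the deficient arrays lay below the wild-type arrays. The named probe had 15.22 and 15.99 against 16.38, 17.05 and 16.96, a difference of -1.19 ± 0.30 (SE), and the others had -0.94 and -0.42. Fam219b also separated the arrays on both of its probes, with -1.07 and -0.31. Cavin1, a coat protein of caveolae, had 15.24 and 15.22 against 15.95, 16.17 and 16.19, a difference of -0.88 ± 0.20 (SE).

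Sdhb, the iron-sulfur subunit of succinate dehydrogenase, had 14.61 and 14.87 against 16.09, 15.97 and 15.34, a difference of -1.06. Arsb, a lysosomal sulfatase, had a difference of -0.83, and Nol9, a kinase of ribosomal RNA processing, -0.94. Cited2, a transcriptional co-regulator that binds CBP and p300, had -0.85, and the HMG-box protein gene Tox4 -0.95. Zfp553, Plekhg3, Pbxip1 and the predicted gene Gm5576 had -1.18, -1.04, -0.94 and -0.84. The adjusted p of the 15 genes lay between 0.0757 and 0.222, so the genes below wild-type reached larger p than those above.

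The direction of a difference followed the place of the probe in the deposited order. All 15 named genes above wild-type had probes in the second part of that order, after plate 11 of an inferred layout of 16 by 24 wells, and all 15 below had probes in the first part. The median difference was -0.16 over the 2696 probes of the first part and 0.12 over the 3017 probes of the second. In the first part 59 probes (2.19%) had non-overlapping arrays higher in deficient glia and 619 (23%) lower. In the second part these were 815 (27%) and 131 (4.34%). The differences of neighbouring probes correlated at 0.423, and those of probes 24 places apart at 0.379. The second part stood higher than the first, against the mean of the 5 arrays, by 0.12 and 0.24 in the deficient arrays and lower by 0.20, 0.09 and 0.08 in the wild-type arrays.

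When a smooth trend over plate row and column was taken out within each part, the correlation of neighbours was 0.086. Then 0 probes (0%) passed in limma, 439 (7.68%) had an unadjusted p under 0.05, and the smallest adjusted p was 0.259. The arrays did not overlap for 721 probes higher (12.6%) and 688 lower (12%) in deficient glia. Of all probes that separated before removal, 442 of 874 higher and 284 of 750 lower still separated, in either direction. The named genes had been picked for their separation in these same arrays. All 15 above wild-type and 14 of the 15 below still separated. The exception was Flna, whose other probes still separated. The differences of the named genes shrank for 14 of the 15 above, to 1.38 for Rdh5, 1.45 for Zfp281 and 1.55 for 2610318N02Rik, while Nqo1 had 1.24. Below wild-type Ptn had -1.18, Flna -1.13, Ecrg4 -1.05 and Tgfbr3 -0.91. How much of each difference the printing of the arrays accounts for was not tested.

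**Figure D2:**
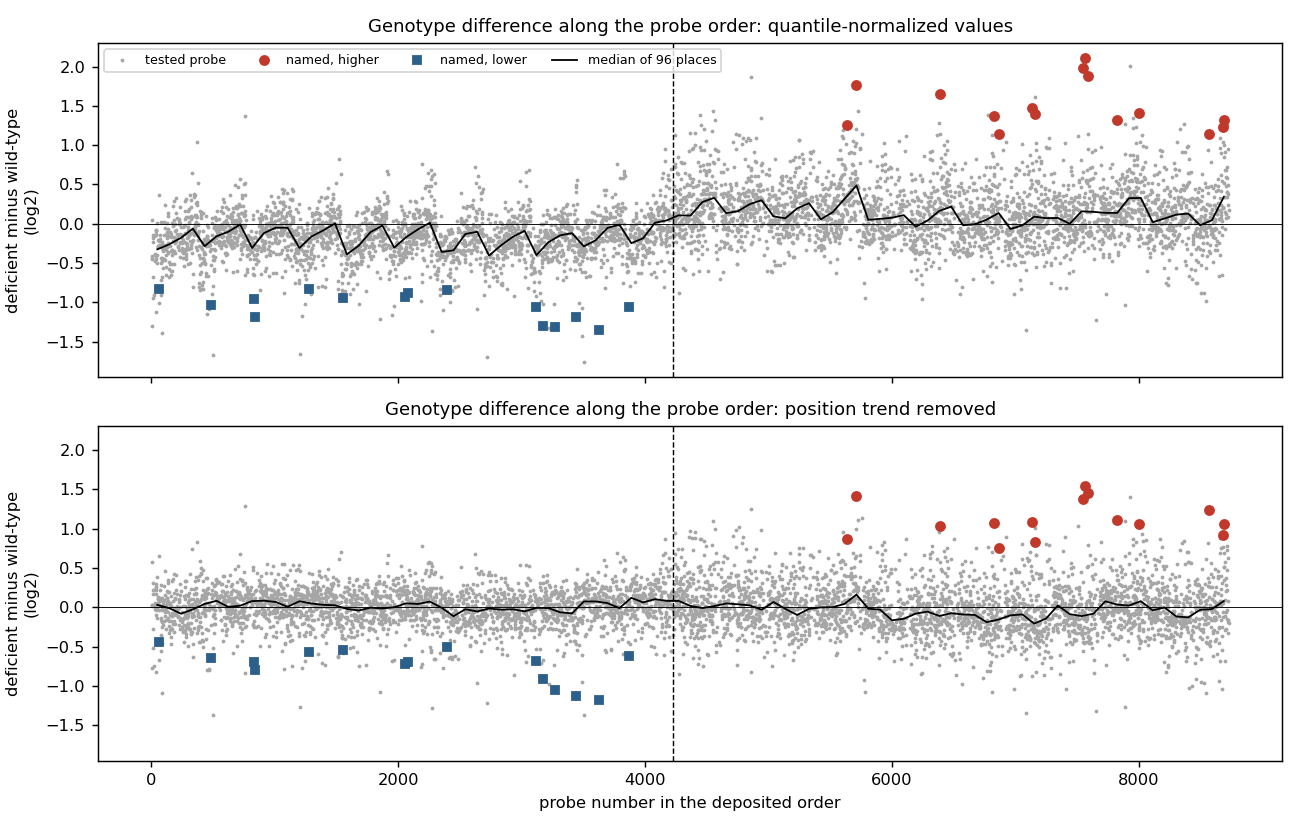
Genotype difference (y axis, log2, deficient minus wild-type vehicle glia) of 5713 probes against probe number in the deposited order (x axis), before (top) and after (bottom) removal of the position trend. Grey dots are probes, circles and squares the 15 named genes above and the 15 below wild-type, the black line medians over 96 places and the dashed line the end of plate 11; the medians of the first and second part were -0.16 and 0.12 before removal.

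The IL-1β arrays of the same cultures gave further arrays of each genotype, which did not enter the choice of these genes, although they share the cultures and a treatment that wild-type cells can sense. There all 15 genes above wild-type had a positive difference, between 0.04 for Exoc3 and 0.64 for Car1, with a median of 0.36 against 1.39 in the vehicle arrays. The IL-1β arrays did not overlap for 6 of the 15: Rdh5, 2610318N02Rik, Trak2, Dph3, Dedd2 and Car1, where the background was 510 of 5713 probes higher (8.93%). Dedd2 had 16.48 and 16.49 in the deficient IL-1β arrays and 15.90, 16.14 and 15.55 in the wild-type ones. For Hao1, whose vehicle arrays lay far apart, the IL-1β arrays overlapped, at 15.79 and 15.38 against 15.53, 15.29 and 15.67.

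Of the 15 genes below wild-type, 10 had a negative difference in the IL-1β arrays and 5 a positive one. None had non-overlapping IL-1β arrays in the same direction, where the background was 517 probes lower (9.05%). Nol9 had non-overlapping arrays in the opposite direction, at 16.51 and 16.48 against 15.92, 16.06 and 16.38. Ptn had 15.30 and 15.06 in deficient and 15.83, 15.70 and 15.17 in wild-type IL-1β arrays, a difference of -0.38. The position pattern of the IL-1β arrays ran the other way, with a median difference of 0.07 in the first part and -0.07 in the second. With the position trend removed there as well, 14 of the 15 above had a positive and 13 of the 15 below a negative difference. Of all probes with non-overlapping vehicle arrays, 601 of 874 higher and 499 of 750 lower also kept their sign there.

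**Figure D3:**
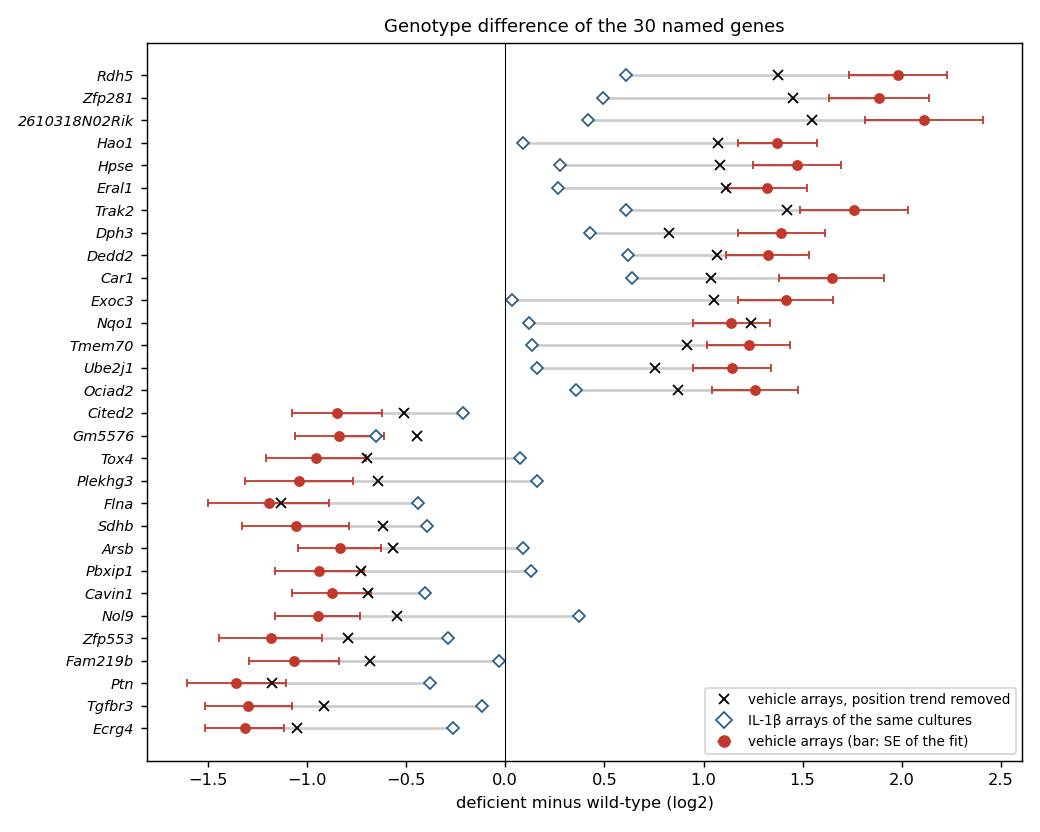
Genotype difference (x axis, log2, deficient minus wild-type) of the 30 named genes (y axis). Filled circles are the vehicle arrays with the SE of the fit, crosses the same with the position trend removed and open diamonds the IL-1β arrays of the same cultures; all 15 genes above wild-type stay positive in the IL-1β arrays, at 0.04 to 0.64.

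On the probe of the receptor itself the genotypes overlapped. Il1r1 had 13.86 and 14.05 in deficient and 13.80, 14.06 and 13.74 in wild-type vehicle arrays, a difference of 0.09 ± 0.21 (SE, limma adjusted p = 0.91), or -0.01 with the position trend removed. The probe was dim in both genotypes, at percentile 14.3 of the tested probes by mean intensity. Where the probe lies in the gene is not known here either, so this difference does not check the genotype labels. Of 27 genes of the IL-1 receptor family and its signalling 4 were tested, and the arrays of 0 of the 4 separated (28.4% of all probes did). Casp1, the protease that matures pro-IL-1β, had 0.06, the ubiquitin ligases Peli1 and Traf6, which relay the signal, had 0.25 and -0.24, of which Peli1 had -0.09 with the trend removed and Traf6 0.04 without wild-type replicate 1, and the list median was 0.08.

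Genes that neighbour Il1r1 on its chromosome were looked at as a list of their own. Of the 30 genes on each side 6 were tested, and the arrays of 3 separated, 1 higher and 2 lower, where 28.4% of all probes separated in either direction; 6 genes are too few to set against that share. Mfsd9, a transporter-like protein 10 places away, had 14.77 and 14.54 against 14.20, 14.18 and 14.17, a difference of 0.47. The kinase gene Map4k4, 4 places away on the other side, had 14.95 and 15.03 against 15.29, 15.71 and 15.07, a difference of -0.37. Pdcl3, a phosducin-like chaperone, had -0.44. All 3 kept non-overlapping arrays with the position trend removed, at 0.23, -0.49 and -0.23. Rnf149, Cnot11 and Tbc1d8 had 0.04, -0.14 and -0.17 with overlapping arrays, and each changed sign in some other setting.

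Of the genes of the NF-κB pathway, 9 of 11 had a positive difference. Of these 11 measured members 0 passed, 6 had non-overlapping arrays, all higher in deficient glia (all probes 15.3%, those of the second part of the order 27%), and the median was 0.35. Tnfaip2, a TNF-inducible transcript, had 15.40 and 15.49 against 14.31, 14.78 and 14.50, a difference of 0.91. Nfkbiz, a nuclear IκB protein, had 14.69 and 14.73 against 14.14, 14.11 and 14.14, a difference of 0.58. Birc2, Birc3, Cyld and Tbk1 had 0.35, 0.42, 0.47 and 0.42, with -0.22 and overlapping arrays on the other probe of Tbk1, and Nfkbia, which retains NF-κB in the cytoplasm, had 0.33 with overlapping arrays. In this list 10 of the 11 probes sat in the second part of the order. With the position trend removed the median was 0.08 and Tnfaip2, at 0.68, was the member whose arrays still separated. In the IL-1β arrays Tnfaip2 had a difference of -1.20.

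Of 8 measured chemokines 4 separated the arrays, all higher in deficient glia, against 15.3% of all probes and 27% of those in the second part, which held 7 of the 8. The median was 0.29, or 0.12 without wild-type replicate 1 and 0.04 with the trend removed. With the trend removed 2 separated higher and 3 lower. Xcl1, a chemokine of T and NK cells, had 15.03 and 14.77 against 13.99, 14.11 and 14.23, a difference of 0.79. Ccl12, which attracts monocytes, had 14.86 and 14.87 against 14.27, 14.11 and 14.44, a difference of 0.59, with 0.32 and overlapping arrays on its other probe. Ccl11 had 0.45 and Cxcl12 0.34, the latter with -0.29 after trend removal and -0.20 on its other probe. The Cxcl12 probe was dim, at percentile 5.1 by mean intensity. In the interferon list 2 of 10 measured genes separated, both higher (all probes 15.3%), and the median was 0.17. Gbp7, an interferon-inducible GTPase, had 15.15 and 15.14 against 14.35, 14.32 and 14.46. That difference was 0.77, and 0.01 on the other Gbp7 probe. Usp18, which removes ISG15, had 0.36.

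Acute phase and complement genes did not lean to one side: 3 of 8 differences were positive and the median was -0.12. A2m, a broad protease inhibitor, had 15.18 and 15.04 in deficient and 16.08, 16.86 and 15.67 in wild-type arrays, a difference of -1.09. It was the 1 member of the 8 with non-overlapping arrays, where 13.1% of all probes separated lower. Lcn2 and Ptx3, classic targets of IL-1β in glia, had -0.46 and -0.20 with overlapping arrays, and Steap4, a metalloreductase, had 0.58. The wild-type arrays of Lcn2 ran from 13.61 to 15.68. Among cytokines and growth factors, Il16, a chemoattractant of CD4+ cells, had 15.44 and 15.01 against 14.56, 14.35 and 14.42, a difference of 0.78, and 0.78 in the IL-1β arrays as well. Among 9 cytokine receptors 3 separated higher (all probes 15.3%), and 0 with the trend removed: Csf2rb (0.53), Tnfrsf4 (0.51) and Il4ra (0.30, but -0.12 with the trend removed), and 1, Tgfbr3, separated lower (all probes 13.1%). The Tnfrsf4 probe was dim, at percentile 1.7 by mean intensity. The 3 measured genes of MHC and antigen presentation had differences of 0.03 to 0.18, with overlapping arrays (28.4% of all probes separated).

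Subunits of oxidative phosphorylation lay below wild-type in nearly every case. Of 19 measured genes 18 had a negative difference, the median was -0.45 against -0.03 over all probes, and 0 passed. The arrays of 3 did not overlap, all lower (all probes 13.1%): Sdhb, the complex I subunit gene Ndufb5 and Cox7a2l of the cytochrome oxidase family. Ndufb5 had 15.01 and 15.37 against 16.43, 15.71 and 15.52, a difference of -0.70, and Cox7a2l had -0.56. Ndufa11, Ndufa2 and Ndufb9, further subunits of complex I, had -0.92, -0.81 and -0.76 with overlapping arrays, because wild-type replicate 3 lay at deficient levels: for Ndufb9 the deficient arrays had 14.25 and 14.26 and the wild-type arrays 15.38, 15.58 and 14.10. Atp5l, a subunit of ATP synthase, was the positive member, at 0.19.

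The probes of this list were spread over both parts of the order, 10 in the first and 9 in the second, and with the trend removed the median was -0.47 with 18 of 19 still negative. Leaving out any 1 array gave medians between -0.64 and -0.34. Without both arrays that have copies elsewhere the median was -0.22, and in the IL-1β arrays it was -0.17, with 11 of 19 negative. With the copied column kept it was -0.03, but that fit covered 4698 probes and lacked members such as Sdhb. That value is therefore not a median of the same 19 genes. The median level of the list was 15.01 and 15.32 in the deficient arrays and 15.75, 15.46 and 15.34 in the wild-type arrays, so IL-1R1-deficient replicate 2 and wild-type replicate 3 were nearly level.

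Ribosomal proteins and the proteasome also had medians below 0, and these depended on the scaling. Of 10 ribosomal protein genes 2 separated the arrays, both lower, a share of 20% against 13.1% of all probes that rests on 2 genes. Rpl8 had 15.36 and 16.18 against 17.55, 17.45 and 16.35, a difference of -1.35, and Rpl35a had 16.08 and 16.59 against 17.32, 16.89 and 17.69, a difference of -0.96. The list median was -0.30, but 0.10 with median centring and 0.03 without IL-1R1-deficient replicate 1. Among 18 proteasome genes, 1 separated higher and 4 lower (all probes 15.3% and 13.1%), with a median of -0.34, or -0.04 with median centring and -0.12 without IL-1R1-deficient replicate 1. Psmd1, a non-ATPase subunit of the proteasome cap, had 15.54 and 15.39 against 16.14, 16.48 and 16.05, a difference of -0.76, and -0.23 with overlapping arrays on its other probe. Psmc5, an ATPase of the cap, had 0.70.

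**Figure D4:**
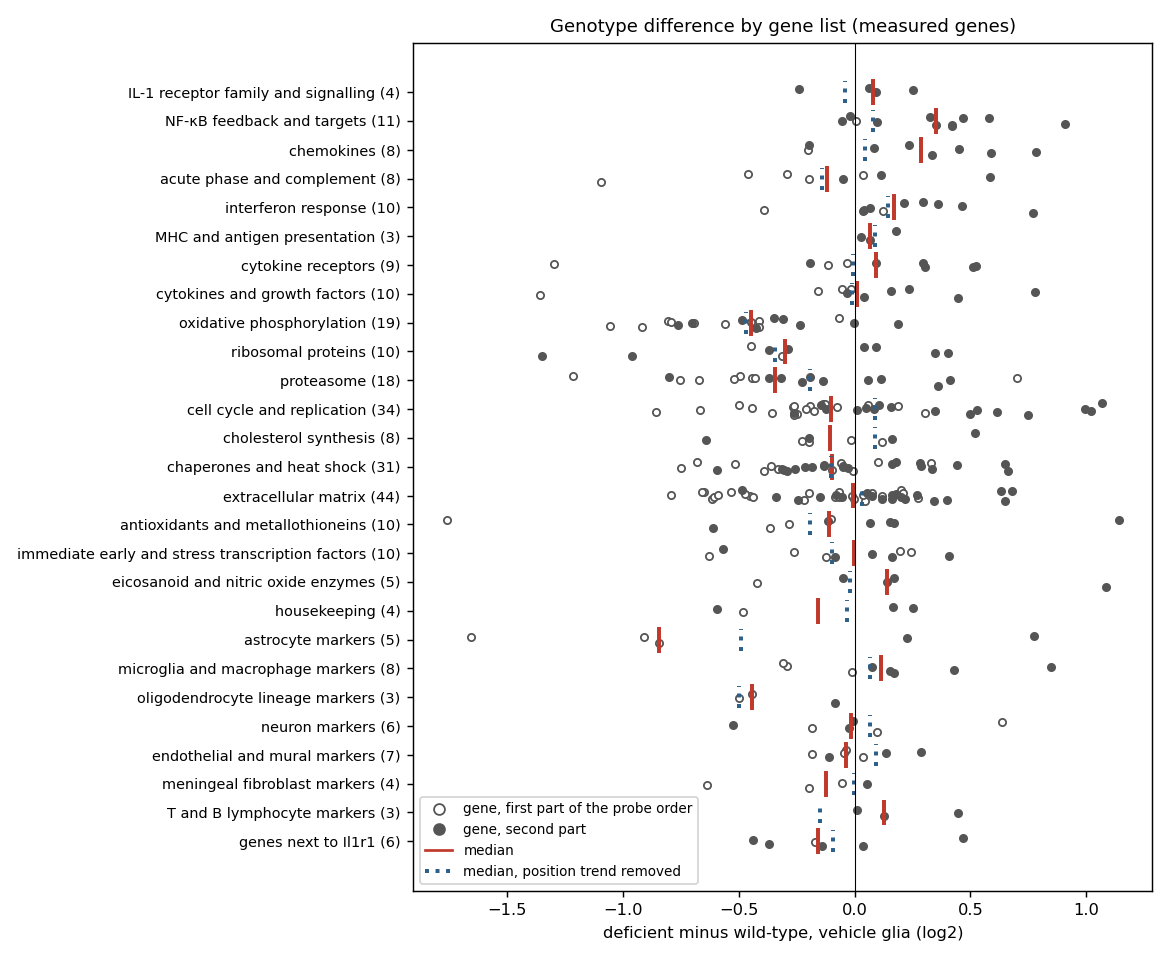
Genotype difference (x axis, log2, deficient minus wild-type vehicle glia) of the measured genes of each list (y axis, number of genes in brackets), 1 probe a gene. Open and filled circles mark probes of the first and second part of the order, red bars the list medians and dotted blue bars the medians with the position trend removed; oxidative phosphorylation stays near -0.45, and the NF-κB list moves from 0.35 to 0.08.

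Markers of the glial cell types were checked next; in RNA from whole cultures fewer cells of a type and less RNA per cell cannot be told apart. Of 5 tested astrocyte markers 0 passed, 2 separated lower and 1 higher (all probes 13.1% and 15.3%), and the median was -0.84, or -0.49 with the trend removed. It was -0.41 without IL-1R1-deficient replicate 1. With the copied column kept it was 0.70, but over only those markers among the 4698 probes with a value on that column too. That value is therefore not a median of the same 5 genes. Cst3, the protease inhibitor cystatin C, had 16.29 and 17.22 in deficient and 19.50, 17.80 and 17.93 in wild-type arrays, a difference of -1.66. Id4, an inhibitor of helix-loop-helix factors, had 14.76 and 14.90 against 16.22, 15.58 and 15.22, a difference of -0.84, and 0.80 in the IL-1β arrays. The Id4 arrays overlapped with the trend removed, at -0.49, so that 1 marker then separated lower and 1 higher. Glul, the glutamine synthetase of astrocytes, had -0.91 with overlapping arrays, and -0.40 with separated arrays on its other probe. Slc1a2, the main glutamate transporter of astrocytes, had 14.62 and 14.29 against 13.93, 13.48 and 13.63, a difference of 0.77. The summed level of the 5 markers was 17.6 to 18.3 on the log2 scale in deficient and 18.7 to 19.9 in wild-type arrays. Without Cst3 the other 4 summed to 16.87 and 17.38 in deficient and 17.65, 17.65 and 17.54 in wild-type arrays, a smaller gap. Sox9, a transcription factor of astrocytes, had 0.23 with overlapping arrays, or -0.34 with the trend removed. Gfap, Aqp4 and S100b were not analysed here, so the list rests on few defining genes.

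Microglial markers lay on both sides of wild-type, 5 of 8 above and 3 below, with a median of 0.11, or 0.35 with median centring. Leaving out wild-type replicate 3 gave a median of -0.01. Of the 8 tested 0 passed and 2 separated, both higher (all probes 15.3%): the lysosomal protease gene Ctss, with 17.19 and 17.65 against 16.48, 16.50 and 16.73, a difference of 0.85, and the tetraspanin gene Cd53, at 0.43. Other probes of Cd53 had 0.05 and -0.09. Tyrobp and Itgam, defining genes of these cells, had 0.15 and -0.01, and C1qc, a complement subunit, and Fcgr3, an immunoglobulin receptor, had -0.29 and -0.31. The summed level was 18.74 to 19.02 in deficient and 18.59 to 18.63 in wild-type arrays. Ctss, the brightest of the 8 on every array and named here for its separation, weighs most in this sum. A sum without Ctss was not taken, and Tyrobp, the next brightest, had overlapping arrays. Whether the share of microglia moved with other differences was not tested.

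In the oligodendrocyte lineage Mbp, a myelin protein, had 15.04 and 15.50 against 16.64, 14.07 and 16.59, so its wild-type arrays spread wider than the genotypes differed. Olig2, a transcription factor of the lineage, had 14.76 and 14.84 against 14.92, 14.95 and 15.86, a difference of -0.44 with separated arrays, the highest being wild-type replicate 3. With the position trend removed the Olig2 difference was -0.498 and its arrays overlapped. Pdgfra, the other tested marker, had -0.085 with overlapping arrays, and 0.28 with separated arrays on its other probe. Among 6 neuron markers the neurofilament gene Nefm separated higher, with 15.72 and 15.56 against 15.01, 14.93 and 15.08, a difference of 0.64, and the list median was -0.02. Nefm stood apart from most of its list, in which 2 differences were positive and 4 negative. Nefl, another neurofilament gene, had -0.03, and -0.18 on its other probe, and Uchl1 had -0.52, all with overlapping arrays. Among 4 meningeal fibroblast markers Fmod separated lower (-0.64). None of 7 endothelial and mural markers and none of 3 lymphocyte markers separated the arrays, and the ependymal, choroid plexus and sex-linked lists had 0 tested genes. Of all probes 15.3% separated higher and 13.1% lower. These marker lists, of at most 7 tested genes, are too short to set against those shares.

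Of 34 measured genes of the cell cycle 8 separated higher (23.5%) and 5 lower (14.7%), against 15.3% and 13.1% of all probes. The 8 all came from the second part of the order, which held 16 of the 34 genes and where 27% of probes separated higher. With the trend removed 8 genes, not all the same ones, separated higher and 4 lower, against 12.6% and 12% of all probes. The median was -0.10, but 0.09 with the trend removed and 0.01 without wild-type replicate 3. Ccne1, the cyclin of S phase entry, had 16.50 and 16.50 against 15.75, 15.21 and 15.33, a difference of 1.07, and -0.22 on its other probe. Wee1, the kinase that holds CDK1 inactive, had 16.22 and 16.37 against 15.25, 15.48 and 15.09, a difference of 1.02. Cdc23, a subunit of the anaphase-promoting complex, had 16.05 and 16.25 against 14.98, 14.89 and 15.58, a difference of 1.00. Cdc6, which loads the replicative helicase, had 0.75, and -0.40 on its other probe.

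On the lower side Cdkn1a, the CDK inhibitor p21, had 14.08 and 14.61 against 14.83, 15.85 and 14.94, a difference of -0.86, and Cdk6 had -0.67, with -0.06 on its other probe. With the trend removed Cdkn1a had -0.40 and overlapping arrays, and Cdk6 had -0.27 and arrays that still separated. The replication factor gene Rfc1 had -0.44, or 0.05 with the trend removed. The remaining 2 of the 5, Cdc42 and Cdc42ep2, entered the list by a name pattern and are not cell cycle genes.

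Of the remaining lists, the matrix list of 44 genes had 7 separating higher and 7 lower (15.9% each), close to the 15.3% and 13.1% of all probes, and a median of -0.01. Col5a2, a fibrillar collagen, had 14.68 and 14.88 against 15.75, 15.35 and 15.63, a difference of -0.79, and -0.02 on its other probe, and the sheddase Adam17 had -0.65. Nid1, a basement membrane linker, had 0.63, and -0.08 on its other probe. Among 31 chaperones 3 separated higher (9.68%) and 4 lower (12.9%), no more than among all probes, with Hspb8, a small heat shock protein, at -0.75 and Dnaja4 at 0.65, the latter with 0.64 and separated arrays on its other probe too.

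Mt1, a metal-binding metallothionein, had the most negative difference of all tested probes, -1.76, yet its arrays overlapped: 16.01 and 17.68 in deficient and 19.70, 18.61 and 17.51 in wild-type glia. Fasn, the fatty acid synthase, had 14.24 and 14.53 against 15.28, 14.89 and 14.91, a difference of -0.64 that kept its size with the trend removed, at -0.65. Asl, an enzyme of arginine synthesis, had 16.23 and 15.81 against 14.91, 15.13 and 14.76, a difference of 1.09, with 0.79 after trend removal and 0.54 in the IL-1β arrays. The immediate early gene Ier2 had -0.63. Over all lists 80 of 291 members (27.5%) had non-overlapping arrays, about the share of all probes (28.4%), and 45 of these still separated in the same direction with the position trend removed.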

How the data were processed

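The authors deposited linear spot intensities of 12 radio-labelled arrays, per the labels' protocols and the values themselves; software, background correction, normalization and filter are not stated there. Of 8734 probes 7153 had 1 gene symbol in the platform annotation, 387 several and 1194 none. A current gene table (GRCm38.p6) changed 0 symbols. The 5 arrays were quantile-normalized on the log2 scale, and 5713 probes (65.4%) with a value on all 5 were kept.

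The genotype difference was fitted for each probe in limma (lmFit, eBayes), version 3.58.1 (R 4.3.3), without a block. Tests were two-sided, adjusted by Benjamini and Hochberg over all 5713 probes. ± gives the SE of the fit. The p-values measure the spread between these arrays. No set test was run: lists (30, 1 probe a gene, the brightest) are described by counts and medians. The code was tested on simulated data.

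The rule named 15 genes per direction by smallest p among non-overlapping probes with 1 symbol, and list members whose arrays separated. Members and lists were chosen with earlier results of these data known. The position trend was removed with loess (span 0.2) over plate row and column within 2 parts of the order. The fit on 10 arrays used duplicateCorrelation (statmod 1.5.0), with a correlation within cultures of 0.388. The number of arrays limits the precision.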

Additional observations from a re-analysis of the deposited data

How the results depend on the processing

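The count of probes past the threshold was 0 in the comparison as reported, 90 with median centring (90 higher, 0 lower, all in the second part of the probe order and all 15 named genes above wild-type among them) and 1 with all 10 arrays. It was 0 in all other settings run: no normalization between arrays, position trend removed, 10 arrays with the trend removed, the copied column kept, without both arrays that have copies, gaps kept, the dimmest probes left out, an unmoderated model, eBayes with an intensity trend, and each array left out in turn (0 to 0). Probes with an unadjusted p under 0.05 numbered 587 as reported, 1486 without normalization (all higher, with the median probe shifted by 1.80), 92 with the copied column kept, 145 without both arrays that have copies, 222 without IL-1R1-deficient replicate 1 and 499 to 715 without another array. With the replicate block (like numbers of the genotypes as pairs) 0 probes passed and 660 had an unadjusted p under 0.05; deviations of like-numbered arrays correlated at 0.228 and -0.091, and the design text pairs treatments within a genotype, so the numbers were not taken as pairs.

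The 30 named genes, picked for their separation in these arrays, kept their direction in every setting that tested their probe. The fit with the copied column kept covered 4698 probes, and of the 30 it held Arsb and Cavin1 only. Across the settings 16 values of the 30 genes passed, 15 with median centring and 1 with all 10 arrays. Other list members were followed through the settings where they separated or had an unadjusted p under 0.05. The IL-1 signalling genes and the neighbours of Il1r1 were followed too. Among the genes so followed 13 changed direction in some setting, none of which passed in those settings, and the cause was not tested. Other genes named above were not followed, and some of them changed sign with the trend removed, such as Sox9 (0.226 to -0.337) and Fcgr3 (-0.309 to 0.167). With the position trend removed, and with 10 arrays and the trend removed, the followed genes that reversed were Bag2 (0.065 and 0.062), Cdc42ep2 (0.134 and 0.124), Cxcl12 (-0.287 and -0.271), Dnajb11 (-0.075 and -0.087), Il1r1 (-0.008 and -0.005), Il4ra (-0.123 and -0.107), Peli1 (-0.089 and -0.079), Rfc1 (0.049 and 0.05), Rnf149 (-0.028 and -0.024) and Tbc1d8 (0.064 and 0.059). With median centring these were Cnot11 (0.009) and Psma4 (0.074, or 0.057 without normalization and relative to the median of all probes). Cnot11 had 0.213 with the replicate block. Without both arrays that have copies Rnf149 had -0.101 and Traf6 0.286. With each array left out in turn Traf6 ran from -0.465 to 0.038, Rnf149 from -0.192 to 0.278 and Cnot11 from -0.558 to 0.208. Only 2 deficient arrays remained, which limits what could be detected.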
